A study of Mus musculus with 4 samples.

Results

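IgG Fc receptors were examined as a group of 6 genes: the activating receptors Fcgr1, Fcgr3 and Fcgr4, the inhibitory receptor Fcgr2b, the signalling chain Fcer1g and the neonatal receptor Fcgrt. They were chosen by gene symbol from the 24421 rows of the count tables, and all 6 were present and passed the filter on low counts. RNA was sequenced in bulk from J558 allografts, tumours of a mouse plasmacytoma line grown under the skin of female BALB/c mice. Mice received 0.5% methylcellulose (Vehicle-1 and Vehicle-2) or TAK-931 at 60 mg/kg (TAK-931-1 and TAK-931-2) by mouth once daily, and tumours were taken on day 6. TAK-931 is an inhibitor of the replication kinase CDC7. No engineered allele is named in the labels, the animal statement of the methods gives an age of 4 weeks for the mice, and an allograft holds J558 cells together with infiltrating cells of the host.

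Fc receptors bind the constant part of antibodies and tie antibody to the cells that act on it. Fcgr1, Fcgr3 and Fcgr4 pair with the gamma chain encoded by Fcer1g, whose ITAM (a tyrosine motif read by SYK) starts phagocytosis and killing of antibody-coated targets. Fcgr2b instead carries an ITIM, which recruits phosphatases such as SHIP-1 and restrains the same cells, as well as B cells and plasma cells. Fcgrt pairs with beta-2 microglobulin inside endosomes and returns IgG and albumin to the circulation. Macrophages, monocytes, neutrophils and NK cells are the usual carriers of the activating receptors, whereas Fcgrt is made by many cell types.

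Library depth was between 16487902 and 19589339 counts. TAK-931-1 stood apart from the other libraries: across genes, the correlation of its log2 CPM (counts relative to the scaled library total) with Vehicle-1 and Vehicle-2 was 0.806 and 0.791, against 0.95 and 0.939 for TAK-931-2. Fitted differences that rest on TAK-931-1 are therefore also given without it. The tumours had the marker genes of their labelled origin, since the summed level of 10 plasma cell and J558 genes was 5460 and 5740 CPM per kb in the vehicle-treated libraries. TAK-931-1 had 2520 and TAK-931-2 had 7110 CPM per kb.

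Sequences upstream of the activating receptor genes are shown first, because their levels are compared below. The windows hold 250 bases before the RefSeq start site (GRCm38.p6) on the coding strand, and capitals mark matches on either strand to GAAA repeated after any 2 bases (the core of an interferon-stimulated response element) or GAGGAA (a PU.1 core). The windows lie at chr3:96293970-96294219 (minus strand), chr1:171018676-171018925 (plus strand) and chr1:171059404-171059653 (minus strand), in the order printed.
Fcgr1: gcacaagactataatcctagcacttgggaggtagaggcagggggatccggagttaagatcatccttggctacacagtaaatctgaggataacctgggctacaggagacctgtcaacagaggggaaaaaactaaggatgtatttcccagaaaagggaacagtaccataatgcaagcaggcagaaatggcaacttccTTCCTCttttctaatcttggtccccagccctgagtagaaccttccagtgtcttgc
Fcgr4: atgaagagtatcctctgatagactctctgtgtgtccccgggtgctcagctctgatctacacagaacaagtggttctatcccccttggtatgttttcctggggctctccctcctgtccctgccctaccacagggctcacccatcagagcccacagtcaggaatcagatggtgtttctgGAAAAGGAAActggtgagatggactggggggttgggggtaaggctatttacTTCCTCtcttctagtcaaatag
Fcgr3: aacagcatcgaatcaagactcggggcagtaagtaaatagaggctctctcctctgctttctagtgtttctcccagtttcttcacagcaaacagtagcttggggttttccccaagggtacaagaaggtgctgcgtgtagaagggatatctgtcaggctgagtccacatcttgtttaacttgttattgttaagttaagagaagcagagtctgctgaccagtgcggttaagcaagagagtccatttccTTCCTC

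GAGGAA was found before all 3 activating receptor genes, at 55 to 50 bases before the start of Fcgr1, 22 to 17 bases before Fcgr4 and 6 to 1 bases before Fcgr3. It was present in 23.3% of the 32851 upstream windows of the same length. Among the 6 genes, the GAAA repeat was found only before Fcgr4 (73 to 64 bases before the start, 2.98% of all windows). The windows of Fcgr2b, Fcer1g and Fcgrt held neither of these 2 letter patterns. Another PU.1 form that was searched, AGGAAG, was found before Fcer1g, 44 to 39 bases before the start. It was also found before Fcgr1, Fcgr3 and Fcgr4, and in 29.5% of all windows. The patterns are among 10 that were searched, and a match describes letters, not binding.

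A further sequence bears on what the counts of Fcgr2b and Fcgr3 can show. The genes lie on either side of Fcgr4 on chromosome 1 and share an identical coding stretch of 129 bases (bases 278 to 406 of the Fcgr2b coding sequence and 263 to 391 of Fcgr3, from GENCODE vM21 transcripts):
Fcgr2b and Fcgr3: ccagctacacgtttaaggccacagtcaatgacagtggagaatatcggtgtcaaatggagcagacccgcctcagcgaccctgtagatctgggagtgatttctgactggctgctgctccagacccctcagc

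Of all stretches of 50 bases in its transcript, 17.9% in Fcgr2b and 12.8% in Fcgr3 also occurred in another gene; for stretches of 100 bases the shares were 6.83% and 3.53%. The other 4 genes had no such stretch at either length. Since uniquely placed reads were counted, reads lying wholly inside such a stretch could be left out of the counts of Fcgr2b and Fcgr3. Over their aligned coding bases, Fcgr2b and Fcgr3 were 83.5% identical, against 59.4% to 64.2% for the remaining pairs of Fcgr1, Fcgr2b, Fcgr3 and Fcgr4. No exon of the 6 genes overlapped another gene of the tables.

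For each of the 6 genes, TAK-931-1 and TAK-931-2 both had more CPM than either vehicle-treated tumour, and the treated tumours differed from each other by 3.49-fold to 6.42-fold. Among all 13669 genes tested, 30% did not overlap between the groups in this direction. In these bulk samples, a difference in the number of cells of a type and a difference in RNA per cell cannot be told apart.

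Fcgr1, the high-affinity IgG receptor (chromosome 3, 96282909 to 96293969, mm10, minus strand), had 17.8 and 10.7 CPM in Vehicle-1 and Vehicle-2, 237 CPM (TAK-931-1) and 47.8 CPM (TAK-931-2). TAK-931-1 was 16.6-fold and TAK-931-2 3.35-fold the vehicle mean. The groups did not overlap, and the gap between the treated libraries was larger than that between the vehicle-treated libraries.

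Fcgr3 (chromosome 1, 171051169 to 171059403, minus strand), a low-affinity activating receptor of macrophages and NK cells, had 16.7 and 14.8 CPM with vehicle against 257 CPM (TAK-931-1) and 49.2 CPM (TAK-931-2). The vehicle-treated tumours were close to each other for this gene, at 1.13-fold. Its ratio to the vehicle mean was 16.3-fold and 3.12-fold in TAK-931-1 and TAK-931-2, near that of Fcgr1 in each library.

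Fcgr4 (chromosome 1, 171018926 to 171029761, plus strand), an activating receptor of monocytes, macrophages and neutrophils, had 30.9 CPM in Vehicle-1 but 9.83 CPM in Vehicle-2. It had 394 CPM (TAK-931-1) and 91.8 CPM (TAK-931-2), which was 19.4-fold and 4.51-fold the vehicle mean. It was the member with the widest gap between vehicle-treated tumours, 3.14-fold, and TAK-931-2 was 2.97-fold the higher of them.

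Fcgr2b (chromosome 1, 170960559 to 170976071, minus strand), the inhibitory receptor, had 30.7 and 27.7 CPM with vehicle against 419 CPM (TAK-931-1) and 120 CPM (TAK-931-2). These were 14.3-fold and 4.11-fold the vehicle mean. The treated libraries were nearest to each other for this gene among the 6, at 3.49-fold.

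Fcer1g (chromosome 1, 171229572 to 171234349, minus strand), which encodes the shared gamma chain, had 32 and 19.1 CPM with vehicle against 593 CPM (TAK-931-1) and 92.3 CPM (TAK-931-2). Relative to the vehicle mean, TAK-931-1 stood at 23.2-fold, more than for any other member, and TAK-931-2 3.61-fold. The gap between the treated libraries, 6.42-fold, was also the widest of the 6.

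Fcgrt (chromosome 7, 45092993 to 45103822, minus strand), the neonatal receptor, had 33.6 and 42.7 CPM with vehicle against 350 CPM (TAK-931-1) and 54.9 CPM (TAK-931-2). Relative to the vehicle mean, TAK-931-1 stood at 9.19-fold but TAK-931-2 at 1.44-fold, the smallest ratio of the 6 in both. It was also the only member with less in Vehicle-1 than in Vehicle-2, and TAK-931-2 was 1.29-fold the higher vehicle value.

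**Figure D1:**
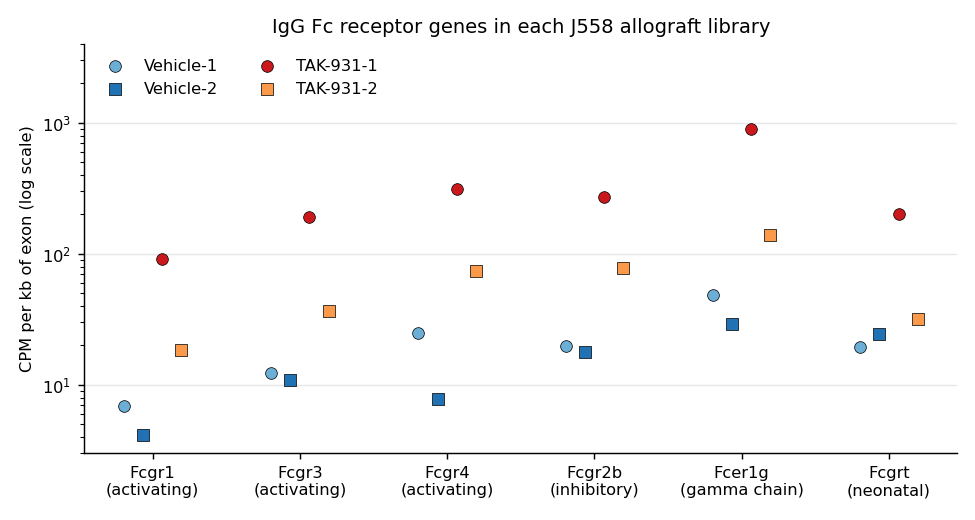
Level of each IgG Fc receptor gene in each library, in CPM per kb of exon on a log scale; each point is 1 library. TAK-931-1 is highest for all 6 genes, from 91.6 (Fcgr1) to 901 (Fcer1g) CPM per kb, and TAK-931-2 lies between it and the vehicle-treated libraries.

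To compare the genes with each other, levels were divided by exon length. Fcer1g was highest in every library, with a mean of 38.9 ± 13.9 CPM per kb under vehicle and 521 ± 538 CPM per kb under TAK-931 (SD, n = 2). Fcgr1 was lowest in every library, with 5.51 ± 1.93 and 55 ± 51.7 CPM per kb in the same order. Between them, the vehicle means were 21.9 ± 3.71 for Fcgrt, 18.9 ± 1.38 for Fcgr2b, 16.3 ± 11.9 for Fcgr4 and 11.7 ± 1 CPM per kb for Fcgr3 (SD, n = 2). The order of Fcgrt, Fcgr2b and Fcgr4 was not larger than the spread: Fcgr4 ranked 2 in Vehicle-1 and 5 in Vehicle-2. In TAK-931-treated allografts the means were 194 ± 171 for Fcgr4, 174 ± 137 for Fcgr2b, 117 ± 120 for Fcgrt and 113 ± 109 CPM per kb for Fcgr3, and the SD of each was of the size of its mean.

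Treated and vehicle tumours were then tested with edgeR (quasi-likelihood, 13669 genes). None of the 6 genes passed an adjusted p of 0.05: the adjusted p was 0.275 for 5 of them and 0.278 for Fcgrt. At this threshold 0% of all genes tested were called, while 18.1% had an unadjusted p under 0.05; with DESeq2, all 6 genes passed 0.05, as did 9.78% of the genes with an adjusted p in the higher direction. The log2 fold change was 3.74 (SE 1.02) for Fcer1g, 3.58 (SE 0.99) for Fcgr4, 3.32 (SE 0.89) for Fcgr1, 3.28 (SE 0.87) for Fcgr3, 3.21 (SE 0.69) for Fcgr2b and 2.41 (SE 0.93) for Fcgrt. These differences lie within 1 SE of each other for the first 5 genes. All 6 lay above 0, as did 51% of all genes tested, and their median was 3.30 against 0.02 over all genes. With the replicate number as a block, Fcgr1 and Fcgr4 passed an adjusted p of 0.05 in edgeR, as did 1.03% of all genes in the higher direction. The labels give no pairing beyond this number, and libraries with the same number did not deviate together across genes (r = 0.004).

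All 6 genes had a log2 fold change over 1.5, as did 16.8% of all genes tested. An unadjusted p under 0.05 in the higher direction was reached by 5 of the 6, all but Fcgrt, and by 11.6% of all genes. A log2 fold change at least as large as that of Fcer1g was found in 2.11% of genes, and one at least as large as that of Fcgrt in 8.57%.

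The size of these differences rested largely on TAK-931-1. Without it, the log2 fold change was 2.17 (SE 1.11) for Fcgr4, 2.03 (SE 0.11) for Fcgr2b, 1.85 (SE 0.34) for Fcer1g, 1.74 (SE 0.27) for Fcgr1, 1.64 (SE 0.17) for Fcgr3 and 0.52 (SE 0.16) for Fcgrt. The first 5 of these stayed over 1.5, as did 7.14% of all genes, and the median of the 6 was 1.79. In this fit the lone treated library is assumed to vary like the vehicle pair, and 5 of the 6 genes, all but Fcgr4, passed an adjusted p of 0.05 in edgeR, as did 12.6% of all genes in the higher direction. Without TAK-931-2, the same 5 genes passed (28.2% of all genes in that direction), and the log2 fold change was between 3.18 for Fcgrt and 4.51 for Fcer1g. Fcgr4 was also the gene most moved by the choice of vehicle library, with 4.61 without Vehicle-1 and 2.94 without Vehicle-2.

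**Figure D2:**
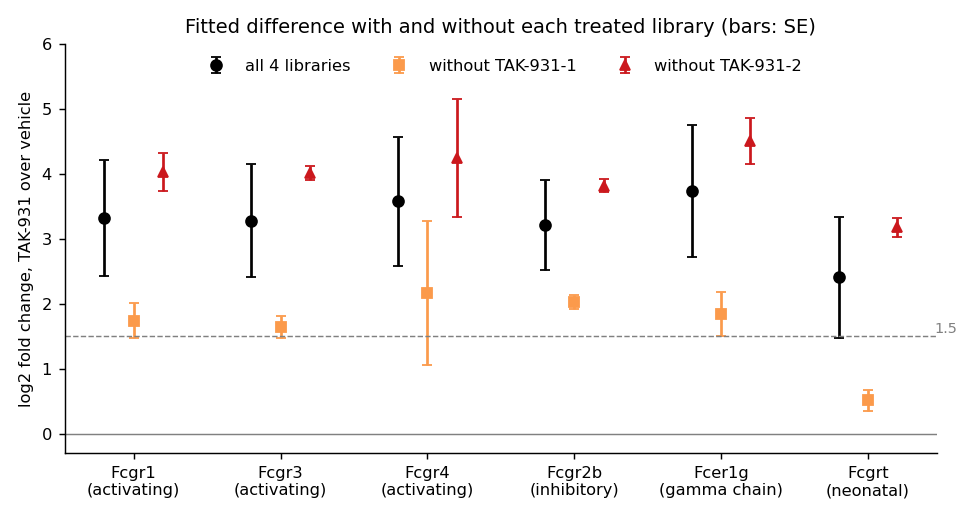
Log2 fold change of each gene (TAK-931 over vehicle, edgeR) with its standard error, for all 4 libraries, without TAK-931-1 and without TAK-931-2; the dashed line marks 1.5. Without TAK-931-1, Fcgrt lies at 0.52 and the remaining genes between 1.64 and 2.17.

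The balance of activating and inhibitory receptors is known to set how strongly a myeloid cell answers IgG. The summed level of Fcgr1, Fcgr3 and Fcgr4 per kb was 2.21 times that of Fcgr2b in Vehicle-1 and 1.28 times in Vehicle-2. It was 2.20 times in TAK-931-1 and 1.65 times in TAK-931-2, so both treated tumours lay within the range of the vehicle-treated tumours. The mean log2 ratio was 0.75 ± 0.56 under vehicle and 0.93 ± 0.29 under TAK-931 (SD, n = 2), which differed by 0.18 (exact permutation test, two-sided, p = 1). With 2 libraries against 2 this test cannot go below 0.333.

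The parts of this ratio did not all vary alike. Fcgr3 to Fcgr2b was steady in the vehicle-treated tumours, at 0.622 and 0.611, and the treated tumours lay on either side, TAK-931-1 at 0.702 and TAK-931-2 at 0.469. Fcgr4 to Fcgr2b was 1.24 and 0.439 in the vehicle-treated tumours, 1.16 in TAK-931-1 and 0.946 in TAK-931-2. Vehicle-2 thus stood low in Fcgr4 relative to its neighbour, and the other 3 tumours were close to each other.

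Fcer1g was also set against the receptors that use it. Its level per kb was 1.11 and 1.27 times the summed activating receptors in the vehicle-treated libraries, 1.51 times in TAK-931-1 and 1.09 times in TAK-931-2 (exact permutation test, two-sided, p = 1). Relative to Tyrobp, the adaptor of a separate set of myeloid and NK receptors, it was 0.931 and 0.924 in the vehicle-treated libraries, 1.20 in TAK-931-1 and 1.36 in TAK-931-2. The groups did not overlap in this ratio, with a difference of 0.46 on the log2 scale and p = 0.333 by the exact permutation test, the smallest it can give here.

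Fcgrt was lower relative to the rest of the group in both treated tumours. Its level per kb was 0.858 and 1.76 times the mean of the other 5 genes in Vehicle-1 and Vehicle-2, 0.570 times in TAK-931-1 and 0.456 times in TAK-931-2. The difference was −1.27 on the log2 scale (exact permutation test, two-sided, p = 0.333). As a share of all 6 genes, Fcgrt made up 14.7% and 26% in the vehicle-treated libraries, 10.2% in TAK-931-1 and 8.36% in TAK-931-2. The share of Fcgr1 stayed between 4.39% and 5.21% in the 4 libraries.

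**Figure D3:**
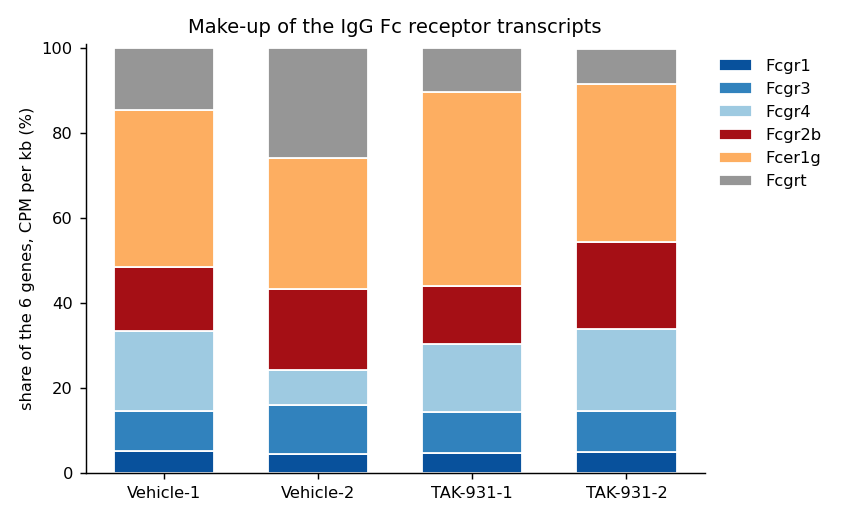
Share of each gene in the summed level (CPM per kb) of the 6 IgG Fc receptor genes, in percent, 1 bar per library. Fcer1g takes 30.8% to 45.7%, and the share of Fcgrt is 14.7% and 26% in the vehicle-treated libraries against 10.2% and 8.36% in the treated ones.

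Because these receptors are carried mainly by myeloid cells, their levels were set beside 17 monocyte and macrophage genes. The summed level of this list was 590 and 479 CPM per kb in the vehicle-treated libraries, 8150 CPM per kb in TAK-931-1 and 1500 CPM per kb in TAK-931-2. All 17 genes were tested, 15 did not overlap between the groups in the higher direction (30% of all genes did), and their median log2 fold change was 2.95, or 1.41 without TAK-931-1. The 6 IgG Fc receptor genes together were 0.223 and 0.197 times this sum in the vehicle-treated libraries, 0.242 times in TAK-931-1 and 0.251 times in TAK-931-2. While the summed receptor level ranged from 94.5 to 1970 CPM per kb, its ratio to the macrophage genes thus stayed between 0.197 and 0.251. The difference in mean log2 ratio was 0.23 (exact permutation test, two-sided, p = 0.333), and it was 0.63 when Lyz2 and the C1q genes, which dominate the sum, were left out of the list.

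Gene by gene, Fcgr2b per unit of Csf1r, the receptor for macrophage growth factor, was 1.81 and 1.82 in the vehicle-treated libraries, 1.79 in TAK-931-1 and 2.95 in TAK-931-2. Fcer1g per unit of Csf1r was 4.44 and 2.94 in the vehicle-treated libraries against 5.94 and 5.34 in the treated ones, which did not overlap. Fcgr3 per unit of Csf1r did not overlap either, at 1.13 and 1.11 against 1.25 and 1.38, and Fcgrt went the opposite way, with 1.76 and 2.49 against 1.33 and 1.20. The exact permutation test gave p = 0.333 for Fcer1g, Fcgr3 and Fcgrt, its smallest value, and p = 1 for Fcgr2b. These directions depended on the reference gene. Per unit of Ptprc, the CD45 gene of all leukocytes, Fcer1g overlapped (7.52 and 7.92 against 8.06 and 6.23), and Fcgr3 was lower in both treated tumours (1.91 and 2.98 against 1.70 and 1.61), as was Fcgr1 (1.06 and 1.13 against 0.820 in each). Fcgrt was lower in both treated tumours per unit of Ptprc as well, at 2.99 and 6.69 against 1.80 and 1.40.

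**Figure D4:**
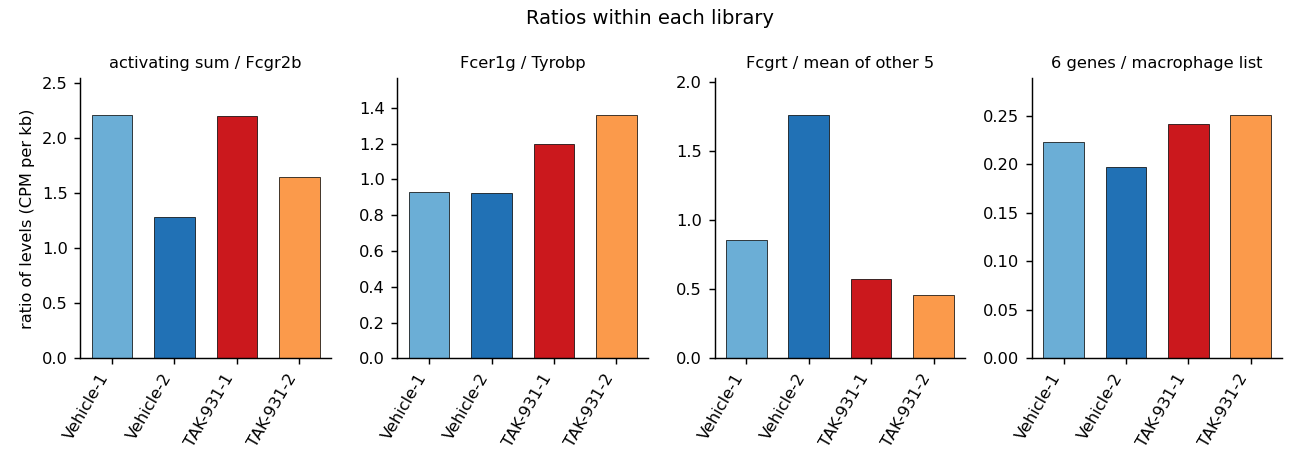
Ratios of levels per kb within each library (1 bar per library): summed activating receptors to Fcgr2b, Fcer1g to Tyrobp, Fcgrt to the mean of the other 5 genes, and all 6 genes to the monocyte and macrophage list. The first ratio runs from 1.28 to 2.21 with the treated libraries inside the vehicle range, and the third is lower in both treated libraries.

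Markers of other cells that carry IgG Fc receptors also differed between the libraries, and their part in these results was not tested. The filter on low counts needs 2 libraries. Some genes reached it in both treated libraries but not in both vehicle-treated ones, and are called tested only through the treated libraries. This choice favours a higher level under TAK-931, although Cd79a and Mmp8, which are of this kind, overlapped between the groups. S100a8, Cpa3 and Tpsb2 reached it in a vehicle-treated and a treated library and are not counted among these genes. No IgG Fc receptor gene and no macrophage, ITAM or ITIM gene was of this kind, and such genes are left out of the non-overlap counts that follow but not of the medians. Of 7 NK cell genes, 6 were tested, 3 of them only through the treated libraries (Klrb1c, Klre1 and Klri2), and 2 of the other 3 did not overlap in the higher direction (30% of all genes did so). Over all 6 tested NK cell genes the median log2 fold change was 2.97, or 2.02 without TAK-931-1. Summed levels of the list were 23.4 and 13.2 CPM per kb in the vehicle-treated libraries, 183 in TAK-931-1 and 57.2 CPM per kb in TAK-931-2. Klra8 had 0 counts in every library. The 9 dendritic cell genes had summed levels between 9.37 and 10.5 CPM per kb in the vehicle-treated libraries, 103 in TAK-931-1 and 24.2 CPM per kb in TAK-931-2, and 6 of 7 did not overlap in the higher direction, against the same 30%, with Cd209a and Clec9a left out. Neutrophil genes differed between the treated tumours: the summed level of the 10 found in the tables was 3.98 and 7.46 CPM per kb in the vehicle-treated libraries, 56 in TAK-931-1 and 5.3 CPM per kb in TAK-931-2. Csf3r, the growth factor receptor of neutrophils, had 5.1 and 4.32 CPM with vehicle, 115 CPM (TAK-931-1) and 15.1 CPM (TAK-931-2), and its 3.72 CPM per kb made up most of the sum in TAK-931-2. S100a8 had 4 and 22 counts with vehicle, 100 in TAK-931-1 and 0 in TAK-931-2, S100a9 had 16 and 18 against 125 and 2 counts, and Elane was at 0 in all 4 libraries. A count of 0 allows up to 3 counts, between 0.158 and 0.180 CPM in these libraries.

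Of the B cell genes, which would carry Fcgr2b, 4 of 8 were tested and their summed level was 154 and 190 CPM per kb in the vehicle-treated libraries against 79.3 and 162 CPM per kb in the treated ones. Of the 4, 3 had a log2 fold change above 0 (51% of all genes did), among them Cd79a, which was tested only through the treated libraries. The median of the 4 was 0.98, or 0.87 without TAK-931-1, with Cd79a (1.83) included. Of the other 3, only Cd22 did not overlap in the higher direction (30% of all genes did so). Ms4a1 and Cd79b had log2 fold changes of 0.12 and −0.69. Cd79b carried most of this sum, with 139 and 174 CPM per kb under vehicle against 61.8 and 133 CPM per kb, and the defining gene Pax5 had 0 counts in all libraries. Cd22 had 1.42 and 1.32 CPM under vehicle against 41.7 and 11.4 CPM (log2 fold change 4.27, SE 0.81, or 3.04 without TAK-931-1). The 10 endothelial genes had 109 and 119 CPM per kb in the vehicle-treated libraries, 320 in TAK-931-1 and 102 CPM per kb in TAK-931-2. Their median log2 fold change was 1.03, or −0.28 without TAK-931-1. In the higher direction 3 of the 10 did not overlap, the same share as the 30% of all genes. Among them, Vwf had 0.712 and 1.56 CPM with vehicle against 31.7 and 9.1 CPM. Its log2 fold change of 4.16, or 2.99 without TAK-931-1, was the largest of this list. Stab2, a gene of the sinusoidal endothelium known to carry Fcgr2b, had 14 and 17 counts with vehicle, 228 in TAK-931-1 and 0 in TAK-931-2. The 8 mast cell and basophil genes summed to 3.21 and 3.86 CPM per kb in the vehicle-treated libraries, 42.9 in TAK-931-1 and 3.76 CPM per kb in TAK-931-2. The 8 T cell genes, a lineage that mostly lacks these receptors, summed to 17.5 and 13.4 CPM per kb in the vehicle-treated libraries, 596 in TAK-931-1 and 55.4 CPM per kb in TAK-931-2, and their median log2 fold change was 5.01, or 2.16 without TAK-931-1. Of these, Cd3e, Cd3g, Cd5 and Cd8a were tested only through the treated libraries, and the other 4 did not overlap in the higher direction, again against 30% of all genes. The plasma cell and J558 genes had a median log2 fold change of −0.51, or 0.12 without TAK-931-1.

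The genes that act below the receptors were less uniform than the receptors themselves. Of 17 genes of ITAM signalling, all 17 were tested, 0 passed an adjusted p of 0.05 in edgeR (12 had an unadjusted p under 0.05, all higher, against 11.6% of all genes), 10 had a log2 fold change over 1.5 (16.8% of all genes) and the median was 1.93, or 0.95 without TAK-931-1. Lcp2, an adaptor below SYK, had 13.9 and 9.71 CPM with vehicle against 255 and 57.3 CPM, a log2 fold change of 3.73 (SE 0.84), or 2.28 without TAK-931-1. Lat2, a membrane adaptor, had 4.03 and 3.54 CPM against 58.8 and 10.7 CPM, a log2 fold change of 3.20 (SE 0.92), or 1.5 without TAK-931-1. Syk itself was already high in vehicle-treated allografts, with 155 and 148 CPM, and had 320 CPM (TAK-931-1) and 217 CPM (TAK-931-2), a log2 fold change of 0.82 (SE 0.29), or 0.51 without TAK-931-1. Plcg2 and Btk, chosen after their values were seen, were lower in each treated tumour than in each vehicle-treated one: Plcg2, the lipase that releases calcium, had 513 and 463 CPM against 154 and 434 CPM, and Btk, a kinase that B cells also use, had 82.8 and 84.6 CPM against 44.4 and 70.4 CPM. Neither had an unadjusted p under 0.05 in edgeR (0.248 and 0.135).

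Cybb and Ncf1, which encode components of the phagocyte oxidase, were also chosen after their values were seen, because the treated tumours were closer to each other for these genes. Cybb, which encodes the catalytic subunit, had 137 and 137 CPM with vehicle against 668 CPM (TAK-931-1) and 485 CPM (TAK-931-2). Its ratio to the vehicle mean was thus 4.88-fold and 3.55-fold, and that of Ncf1, a cytosolic subunit, was 5.02-fold and 3.84-fold. The log2 fold changes were 2.08 (SE 0.28) and 2.15 (SE 0.25), with an adjusted p of 0.275 in edgeR for both.

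On the inhibitory side, 8 genes of ITIM receptors and phosphatases were tested: 0 passed an adjusted p of 0.05 in edgeR, 4 had an unadjusted p under 0.05, all higher (11.6% of all genes), 7 did not overlap in the higher direction (30% of all genes), and the median log2 fold change was 2.04, or 0.56 without TAK-931-1. Inpp5d, which encodes SHIP-1, the phosphatase that Fcgr2b recruits, had 186 and 180 CPM with vehicle against 251 CPM (TAK-931-1) and 244 CPM (TAK-931-2). Ptpn6, which encodes SHP-1, had 277 and 291 CPM against 449 and 446 CPM. For both genes the treated libraries were close to each other, unlike the receptors, and the log2 fold changes were 0.44 (SE 0.22) and 0.66 (SE 0.22). Of the inhibitory receptors of myeloid cells in this list, Lilrb4a had a log2 fold change of 3.77 (SE 0.94), or 2.08 without TAK-931-1, and Pirb 3.37 (SE 0.85), or 1.85 without it. Cd300a, named after its values were seen, had 2.75 (SE 1.12), but 0.46 without TAK-931-1, close to the 0.65 of Ptpn6 and the 0.41 of Inpp5d in that fit.

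Of 13 adaptors and receptors that use Fcer1g or its relatives, 10 were tested; 0 passed an adjusted p of 0.05 in edgeR, and 5 of the 10 (Cd247, Clec4d, Ncr1, Oscar and Trem1) were tested only through the treated libraries. Of the other 5, 2 had an unadjusted p under 0.05, both higher (11.6% of all genes), and 5 did not overlap in the higher direction (30% of all genes). Over all 10 tested genes, the median log2 fold change was 3.02, or 2.68 with Trem1 at its bound, and 1.86 without TAK-931-1. The other 5 had 3.73 (Clec4e), 3.35 (Tyrobp), 2.61 (Trem2), 2.14 (Clec4n) and 0.61 (Hcst). Without TAK-931-1 these were 1.89, 1.29, 0.48, 0.33 and 0.20 in the same order. Trem1, an amplifier of myeloid inflammation, had 0 counts in Vehicle-1 and in Vehicle-2 against 19 (TAK-931-1) and 18 (TAK-931-2), which is at least 5.6-fold and at least 5.87-fold higher against a floor of 3 counts per library. Cd247, the zeta chain of T cell receptors, had 2.25 and 0.360 CPM with vehicle against 89.8 CPM (TAK-931-1) and 5.83 CPM (TAK-931-2). Tyrobp had 29.6 and 17.8 CPM, 425 CPM and 58.2 CPM in the same order. The genes of the IgE receptor, Fcer1a and Ms4a2, had at most 8 counts in any library and were not tested, so the gamma chain was measured here with hardly any transcript of its IgE partner chains.

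Among 13 other genes of proteins that bind immunoglobulin, 11 were tested; 0 passed an adjusted p of 0.05 in edgeR, 3 of the 9 that did not depend on the treated libraries for testing (all but Fcrl5 and Fcrlb) had an unadjusted p under 0.05, all higher (11.6% of all genes), and the median log2 fold change over the 11 was 1.16, or 1.29 without TAK-931-1. Trim21, a cytosolic receptor for antibody bound to viruses, had 6.82 and 4.20 CPM with vehicle against 31.8 CPM (TAK-931-1) and 17.3 CPM (TAK-931-2). B2m, the partner chain of Fcgrt and of MHC class I, had 1040 and 967 CPM with vehicle against 4870 CPM (TAK-931-1) and 1830 CPM (TAK-931-2). Fcgrt per unit of B2m was 0.0160 and 0.0218 against 0.0355 and 0.0148, so the groups overlapped in this ratio. With all libraries, the largest log2 fold changes of the list were 4.11 (SE 1.40) for Fcrl5, a receptor of the Fc receptor-like family, and 3.70 (SE 1.16) for Lgals3, a lectin that binds IgE. Without TAK-931-1 these were 1.67 and 1.29, and Fcrlb (2.24) and Fcer2a (2.05) were larger.

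**Figure D5:**
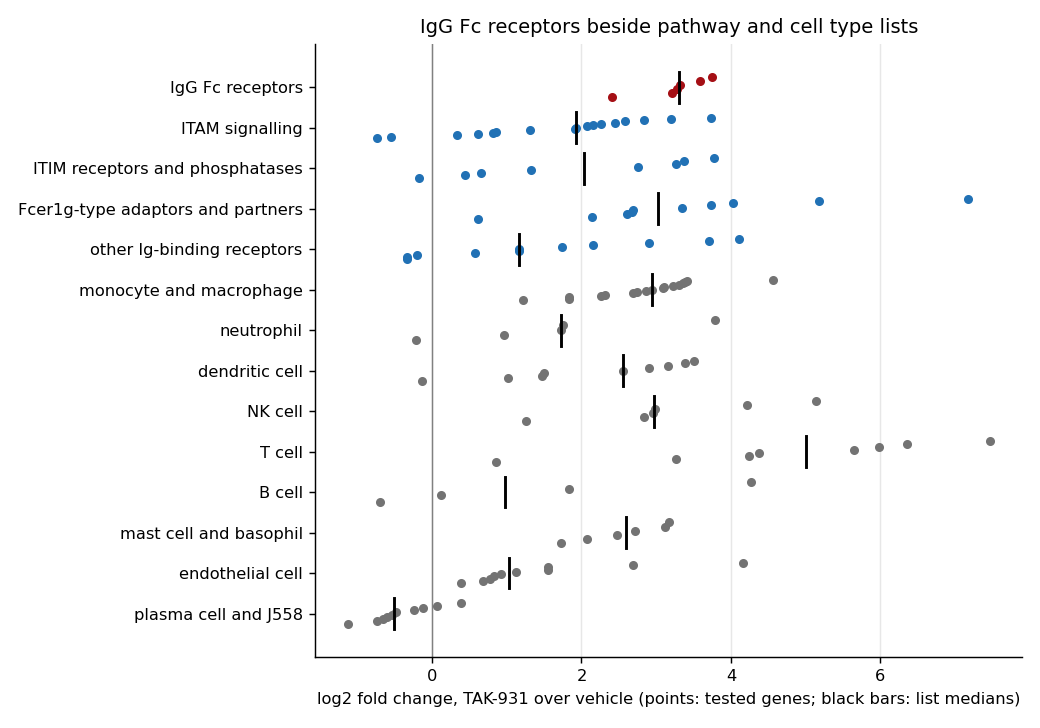
Log2 fold change (TAK-931 over vehicle, edgeR) of the 6 IgG Fc receptor genes, of 4 pathway lists and of 9 cell type lists. Each point is a tested gene and each black bar a list's median. The medians include genes tested only through the treated libraries, among them 4 of 8 T cell, 3 of 6 NK cell and 5 of 10 adaptor genes. The receptor genes lie between 2.41 and 3.74, the list medians run from −0.51 (plasma cell and J558) to 5.01 (T cell), with 2.95 for monocyte and macrophage, 2.97 for NK cell and 3.02 for adaptor genes, which without TAK-931-1 are 0.12, 2.16, 1.41, 2.02 and 1.86 in the same order, and the ITAM list runs from below 0 to 3.73.

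The genes whose pattern over the 4 libraries was most like each member were found by the distance between log2 CPM values centred on their own mean, over 9620 candidates and 4 libraries, as a description. For Fcgr1 these were Tnrc18, Srgn and Irf2bp2 (distances 0.13 to 0.16), and for Fcgr3 they were Tlr7, Rassf5 and Lat2 (0.09 to 0.14). For Fcgr4 they were Ms4a4c, Ltb and Rasgef1b (0.20 to 0.36), for Fcgr2b Ifi202b, Alpk1 and Traf1 (0.13 to 0.18), and for Fcer1g Myo1g, Ablim1 and Lilrb4a (0.18 to 0.23). Fcgrt was nearest to Colec12, Lbh and Cd63 (0.06 to 0.18). Within the group, Fcgr1 and Fcer1g were nearest to each other (0.40), and Fcgr4 and Fcgrt farthest apart (2.14).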

How the data were processed

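RNA was sequenced from 4 J558 allografts, 2 per group. Gene-level read counts were deposited by the authors, separately for each library. Per the submitters' processing notes reads were aligned with STAR 2.6.1c to mm10 and counted with featureCounts; the column names state uniquely placed reads. Strand use and pair counting were not given in the sources used here. Odd values made up 17.9% to 23.9% of small counts (1 to 20), so both mates appear to be counted and counting error is larger than the counts imply. A further column of another kind that the authors deposited, the summed exon length in bases, was used for levels per kb.

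Genes were kept by filterByExpr of edgeR 4.0.16 (minimum count 10), scaled by TMM and compared by the robust quasi-likelihood test with treatment as the only term (R 4.3.3), two-sided, with Benjamini-Hochberg adjustment over 13669 genes at 0.05. DESeq2 1.42.0 and limma-voom (limma 3.58.1) were alternatives. P-values measure the spread between these tumours. Ratios of levels were compared by exact permutation over libraries. Nearest genes needed over 3 counts in every library and a mean log2 CPM over 3 (prior count 2). In the pathway lists, 7 genes were always named, with the 2 largest changes of each list. Promoters came from RefSeq (6 of 6 genes matched) and transcripts from GENCODE vM21. The members and lists were chosen with earlier results of these data known. The fit was tested on simulated data. Some items are not reported here.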

Additional observations from a re-analysis of the deposited data

How the results depend on the processing

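With edgeR's quasi-likelihood test, 0 genes passed an adjusted p of 0.05 and 2475 had an unadjusted p under 0.05. The number passing stayed 0 under DESeq2-style size factors, totals alone, a minimum of 10 counts in each library, the absence of a filter, limma-voom, no robust estimation, halved counts and an adjusted p of 0.01. DESeq2 called 1411 genes, 1259 of them higher, and leaving out each library in turn gave between 0 and 8424 (0 without either vehicle-treated library, 3996 without TAK-931-1 and 8424 without TAK-931-2). The cause of these differences was not tested, except that each of the last 2 fits takes its spread from the vehicle pair alone. The number of the 6 receptor genes with a log2 fold change over 1.5 was 6 in every setting but the fit without TAK-931-1, which gave 5. The log2 fold change of each gene stayed above 0 in all 13 settings. All 6 passed an adjusted p of 0.05 with DESeq2, the highest being 0.0226 for Fcgrt.

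The replicate block called 144 genes, 141 of them higher (1.03% of genes tested), among them Fcgr1 (adjusted p 0.0487) and Fcgr4 (adjusted p 0.0327) in edgeR. Libraries with the same number did not deviate together (r = 0.004 across genes), and the labels give no pairing beyond the number.

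The difference in the log2 ratio of activating to inhibitory receptors was 0.18. It was −0.10 with Fcgr3 only, 0.51 with Fcgr4 only, 0.15 with raw counts, 0 with Fcgr1 only (added after seeing the data), and between −0.21 (without Vehicle-2) and 0.57 (without Vehicle-1) with 1 library left out; without TAK-931-1 it was −0.03. The difference in the log2 ratio of the 6 genes to macrophage genes was 0.23. It ranged from 0.16 with raw counts to 0.63 without Lyz2 and the C1q genes, and from 0.14 to 0.32 with 1 library left out. With 2 against 2, neither test can pass 0.05. Levels near the floor of 3 counts, such as those of Trem1, are limited by depth.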
